A study of Drosophila melanogaster with 42 samples.

Results

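The Cpr genes of Drosophila melanogaster encode cuticular proteins, and they were followed here through metamorphosis and into adult life in ERR mutant and control animals. Members were taken by name, as every gene of the deposited count table whose symbol starts with Cpr and a digit. There were 63 such genes among 15038 in the table. Of these, 58 passed the filter on low counts and entered the tests, as did 13672 genes in all. Cpr35B, Cpr47Ed, Cpr49Af, Cpr62Ba and Cpr67Fa2 did not pass, with 33 to 113 counts summed over all libraries.

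Insect cuticle is a layered extracellular matrix of chitin fibres and proteins that the epidermis secretes anew before each moult. Cpr proteins carry the Rebers and Riddiford consensus, a chitin-binding stretch, and its RR-1 and RR-2 forms are associated with softer and harder cuticle. During metamorphosis the fly builds first a pupal and then an adult cuticle, under pulses of the steroid hormone ecdysone, and different cuticular proteins belong to each. Cpr66D and Cpr72Ec, with the related protein Crys, are components of the corneal lens of the fly eye, which is itself a cuticle.

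RNA came from whole flies in 42 libraries, with 3 libraries in each of 14 groups. The ERR mutant and the control genotype were each collected at 7 time points. In order they are labelled WPP, then P1 to P4, then A1 and A6, with no further definition, and staging began at WPP. ERR is the estrogen-related receptor of the fly, a nuclear receptor. All animals of both genotypes were heat-treated on days 4 and 5 AEL, and the genotypes differed in whether they had an hsFLP transgene, a heat-inducible source of the FLP recombinase. The labels used here say neither which genotype had hsFLP nor which ERR allele was used, so an effect of the transgene itself cannot be told apart from that of ERR. Whether replicate libraries were made from separate cultures is not stated either, so the p-values reflect only the spread among these libraries, part of which may be technical.

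Library totals were between 4308848 and 7737140 counts, so that 1 CPM (counts scaled to the TMM-adjusted library size) stands for a few counts in each library. ERR itself was lower in the mutant at P4, A1 and A6 (edgeR quasi-likelihood test, adjusted p = 1.71e-05, 2.71e-05 and 2.85e-12). It was not called at the earlier 4 stages (adjusted p between 0.101 and 0.176), with the mutant mean below the control mean at each. The library of mutant P1 replicate 1 was close to 0 for RNAs made in males (1.08 CPM of Mst87F, with 65.5 to 100.7 CPM in the rest of the P1 libraries), and the P1 calls, the P1 share of the family and the part of Cpr72Ea in it are therefore given with and without it. Listed markers of muscle, neurons and eye were detected at every stage, while 1 of 5 fat body markers was at 0 in all A6 libraries.

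Over control development the family was most abundant at P3. Of the 58 tested genes, 7 had their highest control level at WPP, 2 at P1, 7 at P2, 31 at P3, 9 at P4, 1 at A1 and 1 at A6. In 51 of the 58 the 3 libraries of the top stage all lay above those of the stage ranked next. The same libraries set the ranking, and no such count was made over all genes, so it is a description only. Of all 63 genes, 17 never reached a control mean of 10 CPM, 10 did so at 1 stage, 10 at 2 stages and 26 at 3 or more stages. The number at 10 CPM or more went from 8 at WPP to 14 at P1, 17 at P2, 36 at P3, 32 at P4, 22 at A1 and 8 at A6.

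**Figure D1:**
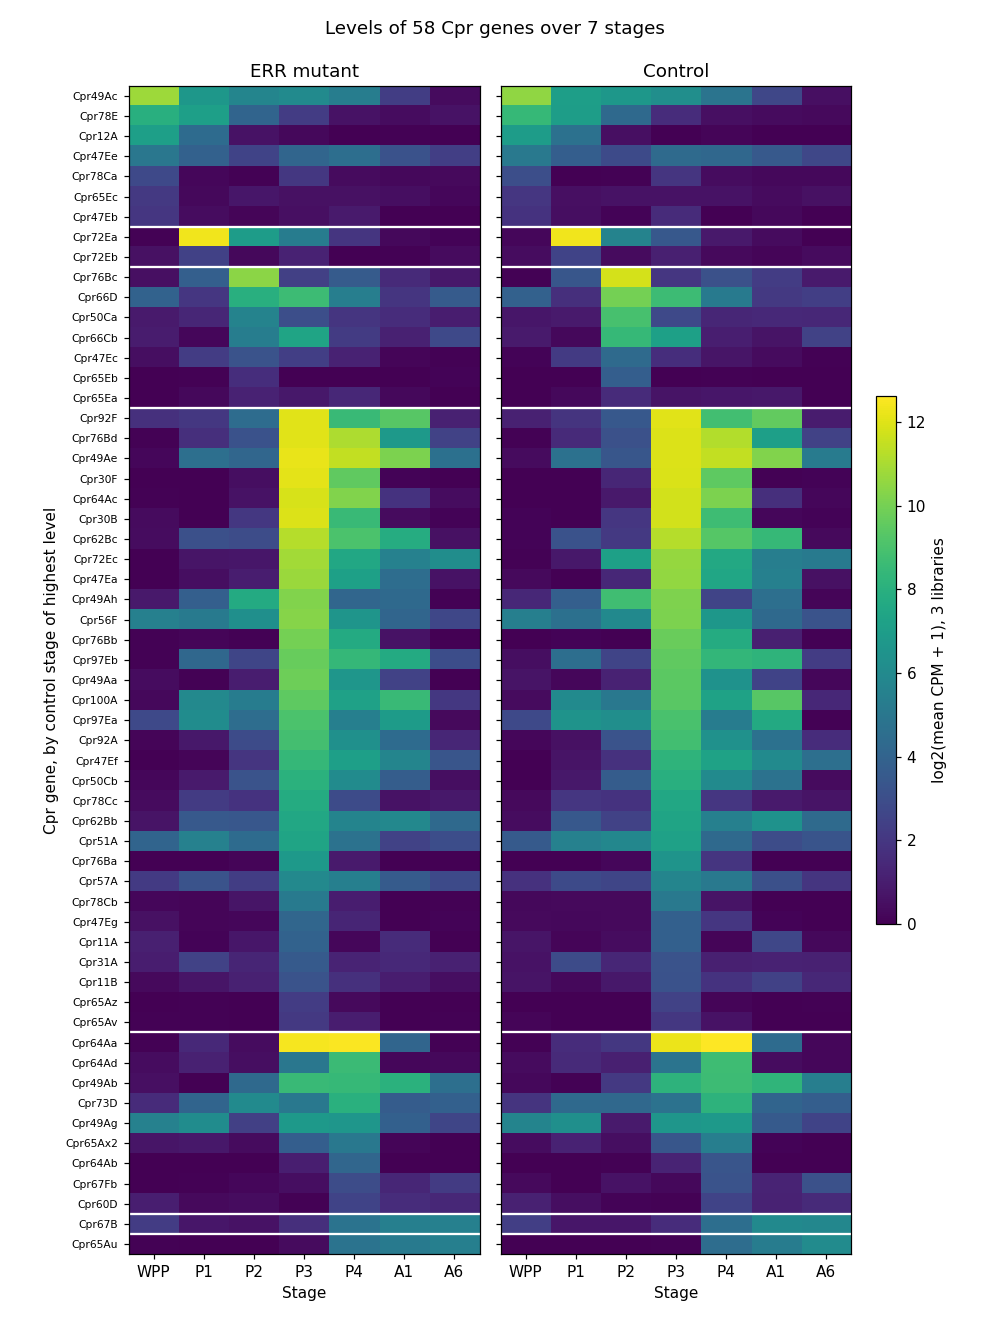
Level of each of the 58 tested Cpr genes (rows, ordered by control stage of highest level, white lines between stages) at the 7 stages (columns), as log2 of the mean CPM of 3 libraries plus 1, in ERR mutants (left) and controls (right). In both genotypes the brightest block is at P3, where 36 control means reach 10 CPM. The rows of the P2 block are darker in the mutant at P2, but the control P2 libraries also set that block, so this is a description only.

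The control steps were tested in 1 fit across all genes, and a gene is called where its Benjamini-Hochberg adjusted p lies under 0.05 (edgeR quasi-likelihood test). From WPP to P1, 24 of the 58 genes were higher and 13 lower at the later stage, while 25.6% and 21.1% of all tested genes were called in those directions. From P1 to P2 the counts were 23 higher and 12 lower, against 21% and 23.8% of all genes. From P2 to P3, 41 were higher and 9 lower, with 15.6% and 20.9% of all genes called in these directions. The median log2 change of this step was 4.35 over the 56 Cpr genes with more than 3 counts in a group, against -0.03 over 13001 genes. From P3 to P4 the direction turned, with 10 higher and 39 lower (17.3% and 20.2% of all genes) and a median of -1.95, against 0.06 over all genes. From P4 to A1, 8 were higher and 33 lower (16.2% and 22.7% of all genes), and from A1 to A6, 3 were higher and 27 lower (9.65% and 14.7%).

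Single genes moved over a wide range within 1 step. Cpr72Ea rose to 5279 ± 235 CPM in control P1 libraries (SD, n = 3), against 0.153 ± 0.266 CPM and 3 counts in all at WPP (adjusted p = 8.5e-22). Cpr100A and Cpr76Bc also rose from WPP to P1, to 65.9 ± 16.01 and 9.50 ± 5.43 CPM (adjusted p = 2.4e-18 and 3.1e-09). Cpr49Ac fell by 3.5 on the log2 scale over the same step (adjusted p = 1.6e-08), and Cpr66D fell by 2.65 (adjusted p = 9.3e-09). Cpr78Ca had 145 counts at WPP and 0 at P1, which makes it at least 53.9-fold lower there, with 0 set at 3 counts over the group (adjusted p = 6.2e-09).

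Of the genes with their control top at P2, some were near 0 at the stages before and after, while Cpr66D and Cpr66Cb were still at 397 and 142 CPM in control P3 libraries. From P1 to P2, Cpr66Cb rose by 10.5 and Cpr50Ca by 9.05 on the log2 scale (adjusted p = 8.1e-15 and 7.6e-16), and Cpr65Eb was at least 93.9-fold higher at P2, with 0 counts at P1 (adjusted p = 2.5e-07). Cpr72Ea, Cpr49Ag and Cpr12A fell over this step (log2 change -6.74, -6.37 and -5.89, adjusted p = 9.1e-19, 1.3e-15 and 2.8e-11). By P3, Cpr76Bc had fallen by 10.22 and Cpr50Ca by 6.41 on the log2 scale (adjusted p = 1.4e-18 and 9.5e-14). Cpr65Eb was back at 0 counts at P3, at least 62.9-fold lower than at P2 (adjusted p = 1e-06 with edgeR but 0.0617 with DESeq2).

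Several genes with their control top at P3 were near 0 at P2, while others, such as Cpr49Ah at 431 CPM, were already present in control P2 libraries. Cpr76Bb had 0 counts at P2 and 12412 at P3 in controls, at least 5440-fold higher (adjusted p = 6.4e-21). Cpr64Ac and Cpr30F rose by 12.03 and 11.27 on the log2 scale to 3513 ± 392 and 3852 ± 649 CPM (adjusted p = 4.4e-19 and 2.4e-17). At P4, Cpr49Ah, Cpr66Cb and Cpr11A had fallen, to 5.10 ± 0.572, 1.06 ± 0.733 and 0.141 ± 0.244 CPM (adjusted p = 1.5e-13, 5e-12 and 1.7e-08). Cpr65Au, Cpr67Fb and Cpr64Ad rose over this step instead, to 21.8 ± 5.93, 8.46 ± 1.73 and 418 ± 16.9 CPM (adjusted p = 1.1e-10, 8.6e-09 and 1.2e-15).

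Levels fell further across the adult stages. Cpr30F, Cpr30B and Cpr64Ad had 1, 2 and 5 counts over the 3 control A1 libraries, against 11387, 6441 and 6523 at P4 (adjusted p = 4.2e-16, 1.2e-17 and 2.3e-20). Cpr11A, Cpr97Ea and Cpr49Ah were higher at A1 than at P4, at 5.38 ± 1.49, 199 ± 58.2 and 23.8 ± 7.63 CPM (adjusted p = 4.6e-06, 4.1e-09 and 0.00037). From A1 to A6, Cpr62Bc and Cpr92F fell (log2 change -10.22 and -9.66, adjusted p = 1.7e-20 and 1.9e-21), and Cpr97Ea went to 1 count in all (adjusted p = 1.8e-17). The 3 genes higher at A6 were Cpr67Fb and Cpr65Au, at 7.63 ± 1.19 and 67.0 ± 13.2 CPM (adjusted p = 3.9e-05 and 0.014), and Cpr66Cb, at 4.57 ± 0.334 CPM (adjusted p = 0.00448). The call of Cpr65Au was lost without control A1 replicate 1 or 2 or control A6 replicate 1 (adjusted p = 0.0686, 0.0599 and 0.0757).

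Levels of different genes are set beside each other per length, as deposited FPKM, for the leading members of each control top stage. By mean control FPKM the leading gene at WPP was Cpr78E. It had 675, 913 and 722 FPKM in the mutant libraries and 803, 1598 and 919 FPKM in the control libraries. Cpr49Ac stood at 1238, 1362 and 827 FPKM in the mutant, against 1151, 882 and 1077 FPKM in the control. It was above Cpr78E in every WPP library but control replicate 2. Cpr49Ac held 74.9% of the family's CPM in the mutant and 69.1% in the control, against 10.7% and 16.1% for Cpr78E. For both genes the genotypes overlapped, and control replicate 2 was the highest control library in Cpr78E and the lowest in Cpr49Ac. Cpr12A had 149, 217 and 178 FPKM in the mutant and 165, 174 and 150.1 FPKM in the control, again overlapping. The other genes with their top at WPP, Cpr47Ee, Cpr78Ca, Cpr65Ec and Cpr47Eb, had control means of 3.58 to 24.9 FPKM there.

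P1 was the stage of a single gene. Cpr72Ea reached 5034, 4934 and 5081 FPKM in the mutant and 4952, 4664 and 4833 FPKM in the control. The libraries of the genotypes overlapped. It held 88.2% of the family's CPM at P1 in the mutant (88.5% without mutant P1 replicate 1) and 87.5% in the control. Its neighbour Cpr72Eb, the other gene with its top at P1, had 10.1, 4.56 and 5.65 FPKM in the mutant and 9.03, 5.19 and 6.43 FPKM in the control. In both genotypes replicate 1 was the highest for Cpr72Eb, and the genotypes overlapped.

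At P2 the leading gene was Cpr76Bc, with 1229.6, 709.9 and 955 FPKM in the mutant and 2476, 2612 and 2395 FPKM in the control. It held 54.9% of the family's CPM in the mutant and 55% in the control, although its level differed between them. Cpr66D had 323, 196 and 265 FPKM in the mutant, against 1074, 1169 and 798 FPKM in the control. Cpr66Cb had 52.7, 37.1 and 50.1 FPKM in the mutant and 498, 557 and 162 FPKM in the control. In all 3 genes every mutant library lay below every control library, and the lowest control library was replicate 3.

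At P3 no gene dominated, and the first 3 genes held 31.5% of the family's CPM in the mutant and 31.2% in the control. Cpr30B had 7843, 7716 and 7124 FPKM in the mutant and 6667, 7300.3 and 5926 FPKM in the control. Cpr30F had 7846, 6993 and 6039 FPKM in the mutant and 5820.5, 7188 and 5209 FPKM in the control. The third, Cpr64Ac, had 5366, 5550.5 and 4807 FPKM in the mutant, against 4832, 5669 and 4613 FPKM in the control. The genotypes overlapped in each of these genes. Cpr97Ea, Cpr97Eb, Cpr92A, Cpr92F and Cpr100A, the 5 members on chromosome arm 3R, had their control top at P3, as had 31 of all 58 tested genes. Cpr97Ea and Cpr97Eb lie side by side, and the chromosome arms were not compared. The control top of Cpr100A was level with A1 (667 and 640.1 CPM) and moved to A1 in deposited FPKM.

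At P4, Cpr64Aa had the highest mean of the whole family at any control stage, 7180.5, 7794 and 7328 FPKM in the mutant and 8310.4, 7583 and 7874 FPKM in the control. Cpr49Ab had 459, 607 and 548 FPKM in the mutant, against 649.6, 656 and 612 FPKM in the control. Cpr64Ad had 471, 517 and 531 FPKM in the mutant and 605, 546 and 539 FPKM in the control. Each of these genes had all 3 mutant libraries below the control mean, but none was called at P4. Cpr64Aa, Cpr64Ab, Cpr64Ac and Cpr64Ad overlap the gene CG43367, on the same strand for Cpr64Ad and on the other strand for the rest, so part of their counts may belong to it.

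Cpr67B was the single gene with its control top at A1, at 65.9, 53.8 and 53.1 FPKM in the mutant and 89.1, 72.4 and 87.2 FPKM in the control. Cpr65Au, the single gene with its top at A6, had 177, 163 and 149 FPKM in the mutant, against 316, 215 and 253 FPKM in the control. In both genes every mutant library was below every control library, but the adjusted p was 0.174 for Cpr67B at A1 and 0.0776 for Cpr65Au at A6. Neither was called with edgeR, while DESeq2 called both (adjusted p = 0.0224 and 0.00923).

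The mutant followed the same order of stages for most genes. In mutant libraries 7 genes had their top at WPP, 2 at P1, 4 at P2, 35 at P3, 8 at P4, none at A1 and 2 at A6. The top stage was another one than in the control for 6 of 58 genes. Cpr66D and Cpr66Cb had theirs at P3 in the mutant, at 402 and 167 CPM, against P2 in the control, at 1007 and 356 CPM. Cpr49Ab and Cpr49Ag had theirs at P3 in the mutant and P4 in the control. The control levels of Cpr49Ag at P4 and P3 were close (107 and 99.2 CPM) and its control top moved to P3 by medians and without control P3 replicate 3. Cpr67B had its top at A6 in the mutant and A1 in the control. Its control levels at A1 and A6 were close (62.2 and 55.5 CPM), and the libraries of these stages overlapped. Cpr65Ea had its top at P4 in the mutant, at 1.68 CPM, and at P2 in the control, at 1.92 CPM.

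The members lie in local runs in the genome. In dm6, with the Ensembl annotation, 31 are on 3L, 20 on 2R, 5 on 3R, 4 on 2L and 3 on X, and 44 of the 63 stand in 12 runs with gaps of at most 20000 bp between neighbours. Runs were not of 1 kind in time: of the 11 runs with 2 or more tested members, 2 had a single control top stage. The run of Cpr72Ea, Cpr72Eb and Cpr72Ec (chr3L:16362603-16367340) held genes of P1, P1 and P3. The run of Cpr76Ba, Cpr76Bb, Cpr76Bc and Cpr76Bd (chr3L:19517552-19538289) had 3 genes of P3 around Cpr76Bc, a gene of P2. The run of 7 Cpr47E genes (chr2R:11251751-11278445) held tested members of WPP, P2 and P3. The annotation lists 7 further Cpr genes that are not analysed here, and Cpr65Ax2 and Cpr67Fa2 have near copies among them, so their counts are uncertain. Cpr47Ea, Cpr51A, Cpr11B, Cpr73D, Cpr67Fb, Cpr65Au and Cpr56F overlap genes on the other strand, and the strand setting of the counting is not given in the sources used here, so reads of such partners cannot be told apart.

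The genotypes differed in the summed level of the family at P2. The 63 genes took 0.229 to 0.319% of the counts in mutant P2 libraries, against 0.592 to 0.747% in control P2 libraries, without overlap. At P1 just before, the share was 0.671 to 0.766% in the mutant (0.72 to 0.766% without mutant P1 replicate 1) and 0.698 to 0.722% in the control. At P3 just after, it was 4.11 to 4.18% in the mutant, above the 3.53 to 4.04% in the control. At A1 the mutant share of 0.348 to 0.361% was below the control share of 0.407 to 0.467%. At WPP the shares were 0.181 to 0.253% in the mutant and 0.201 to 0.214% in the control, and at P4 1.35 to 1.39% and 1.42 to 1.49%. Both genotypes had their lowest share at A6, with 0.034 to 0.0389% in the mutant and 0.0389 to 0.0448% in the control. In whole animals, fewer secreting cells and less RNA per cell cannot be told apart.

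**Figure D2:**
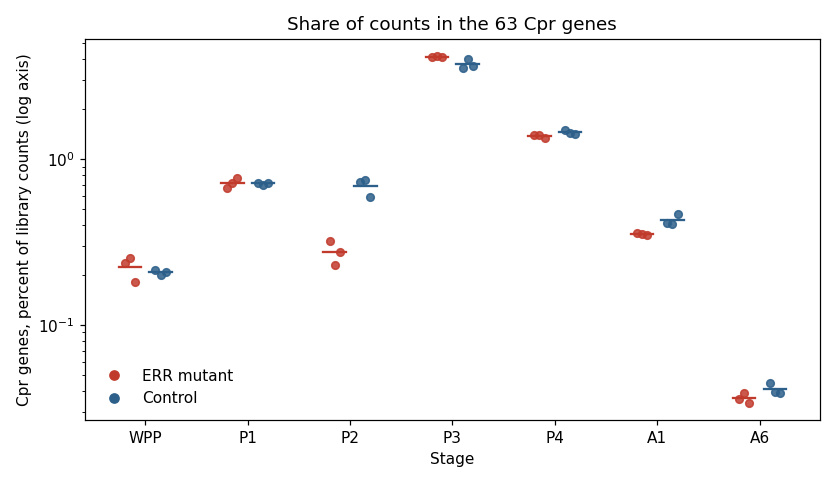
Percent of each library's counts in the 63 Cpr genes (log axis) at the 7 stages, with ERR mutant libraries (red) left of control libraries (blue) and a bar at each group mean (3 libraries). The genotypes stand farthest apart at P2, where the mutant lies at 0.229 to 0.319% and the control at 0.592 to 0.747%.

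At P2, 19 of the 58 genes were called between the genotypes, 8 higher and 11 lower in the mutant. Over all tested genes 2.78% were called higher and 8.79% lower at this stage, against 13.8% and 19% of the Cpr genes. The median log2 difference was -0.35 over the 50 Cpr genes with more than 3 counts in a group, and -0.02 over 12893 genes. Of the 7 genes with their control top at P2, 6 were lower in the mutant, namely Cpr76Bc, Cpr66D, Cpr50Ca, Cpr66Cb, Cpr47Ec and Cpr65Eb. The same control P2 libraries set that top stage and enter the difference, so this count is a description only.

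The widest difference was in the corneal lens gene Cpr72Ec. It had 0.785, 0.682 and 0.603 CPM in mutant P2 libraries, from 4, 5 and 3 counts, against 164, 215 and 45.97 CPM in control P2 libraries. All mutant libraries were near 0 and control replicate 3 was the lowest of the controls (log2 fold change -7.64, SE 0.487, adjusted p = 2.32e-12). At P1, the stage before, it was near 0 in both genotypes, with means of 0.618 CPM in the mutant and 0.746 CPM in the control, and at P3 it stood at 1842 CPM in the mutant and 1583 CPM in the control. Cpr66D, the other lens gene of the family, had 315, 181 and 259 CPM in the mutant and 1040.4, 1162 and 819.6 CPM in the control (log2 fold change -2.0, SE 0.222, adjusted p = 5.49e-08). Unlike Cpr72Ec it remained well above 0 in the mutant, and at P3 it was at 402 CPM in the mutant and 397 CPM in the control. Crys, the lens protein gene outside the set taken by name, was at 2.49 ± 2.03 CPM in the mutant and 84.6 ± 34.9 CPM in the control (SD, n = 3; log2 fold change -5.15, adjusted p = 1.05e-11). It is listed with the Rebers and Riddiford consensus as well, and its symbol alone leaves it out.

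Cpr50Ca had 75.1, 29.6 and 41.2 CPM in mutant P2 libraries and 539, 604 and 326 CPM in control P2 libraries (log2 fold change -3.34, SE 0.354, adjusted p = 2.58e-08). It overlaps a long noncoding RNA on its own strand, lncRNA:CR43810, and S-Lap7 on the other strand, whose reads cannot be told apart from its own. Cpr66Cb had 45.5, 30.4 and 43.4 CPM in the mutant and 428, 491 and 148 CPM in the control (log2 fold change -3.17, SE 0.387, adjusted p = 3.81e-07). In both genes the lowest control library was again replicate 3, and it stood above every mutant library.

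Cpr97Ea had 27.3, 20.05 and 17.9 CPM in the mutant, against 71.1, 84.2 and 64.2 CPM in the control (log2 fold change -1.75, SE 0.261, adjusted p = 1.08e-05). Cpr51A had 24.7, 16.5 and 18.7 CPM in the mutant and 62.9, 67.7 and 37.9 CPM in the control (log2 fold change -1.50, SE 0.247, adjusted p = 4.66e-05). These genes had their control top at P3, at 516 and 149 CPM, and were already present at P1 in both genotypes.

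Lower as well was the abundant Cpr76Bc, at 1355 ± 397 CPM in the mutant and 3636 ± 149 CPM in the control (SD, n = 3; log2 fold change -1.42, SE 0.28, adjusted p = 0.00055). Cpr65Eb, found almost only at P2, was at 2.14 ± 1.25 CPM in the mutant and 12.8 ± 2.02 CPM in the control (adjusted p = 0.000929 with edgeR, 0.728 with DESeq2). Cpr64Aa, Cpr30F and Cpr47Ec completed the 11, with adjusted p = 7.78e-05, 0.0239 and 0.0409. Cpr64Aa and Cpr30F were barely on at P2, with means of 0.336 and 0.372 CPM in the mutant and 3.06 and 1.53 CPM in the control. The call of Cpr47Ec was lost with DESeq2 (adjusted p = 0.0919), in the 6 P2 libraries alone (0.0929) and without control P2 replicate 2 or 3 or mutant P2 replicate 2 or 3 (up to 0.232). That of Cpr30F was lost without control P2 replicate 1 or 2 or mutant P2 replicate 2 or 3 (adjusted p up to 0.176). Cpr30F was the single gene of the 11 whose libraries overlapped between genotypes. The same libraries set these calls, and overlap was not counted over all genes, so this is a description only.

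Among the 8 higher genes, Cpr49Ab had 18.4, 19.2 and 19.9 CPM in mutant P2 libraries and 3.15, 2.25 and 4.44 CPM in control P2 libraries (log2 fold change 2.54, SE 0.272, adjusted p = 4.28e-08). Cpr49Ag and Cpr49Ae, from the same run, were higher too. Cpr49Ag had 3.53, 4.36 and 4.82 CPM in the mutant and 1.29, 0.321 and 1.11 CPM in the control, from 2 to 9 counts a library in the control (log2 fold change 2.18, SE 0.452, adjusted p = 0.000963). Cpr49Ae averaged 16.8 ± 0.764 CPM in the mutant and 9.36 ± 1.11 CPM in the control (SD, n = 3; log2 fold change 0.84, SE 0.208, adjusted p = 0.00572). In all 3 genes the mutant libraries lay above the control libraries. Cpr49Aa and Cpr49Ac, which flank Cpr49Ab, and Cpr49Ah of the same run were not called.

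Cpr73D had 55.9, 74.1 and 64.5 CPM in the mutant, against 14.6, 16.7 and 23.3 CPM in the control (log2 fold change 1.83, SE 0.276, adjusted p = 1.21e-05). Cpr72Ea, the P1 gene from the run of Cpr72Ec, had 123, 122 and 130.0 CPM in the mutant and 46.4, 41.9 and 60.1 CPM in the control (log2 fold change 1.34, SE 0.222, adjusted p = 6.44e-05). Members of 1 run thus differed in opposite directions at P2, while Cpr72Eb, which lies between them, was not called. Cpr92F had 18.2, 23.2 and 20.9 CPM in the mutant and 6.88, 8.02 and 14.9 CPM in the control (log2 fold change 1.07, SE 0.222, adjusted p = 0.000938). Its call was lost when the 6 P2 libraries were fitted alone (adjusted p = 0.0789).

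Cpr62Bb had 9.22, 8.46 and 11.4 CPM in the mutant and 4.73, 5.13 and 3.96 CPM in the control (log2 fold change 1.06, SE 0.253, adjusted p = 0.00398). Cpr62Bc, from the same run, averaged 6.59 ± 2.76 CPM in the mutant and 3.24 ± 0.531 CPM in the control (SD, n = 3; log2 fold change 1.02, SE 0.288, adjusted p = 0.0165). The call of Cpr62Bc was lost in the 6 P2 libraries alone (adjusted p = 0.138) and without control P2 replicate 1 or 3 or mutant P2 replicate 2 or 3 (up to 0.166). All 8 higher genes, called in these same libraries, had every mutant library above every control library, which is a description only. For each of them the mutant P2 mean was below the mean of its control top stage.

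**Figure D3:**
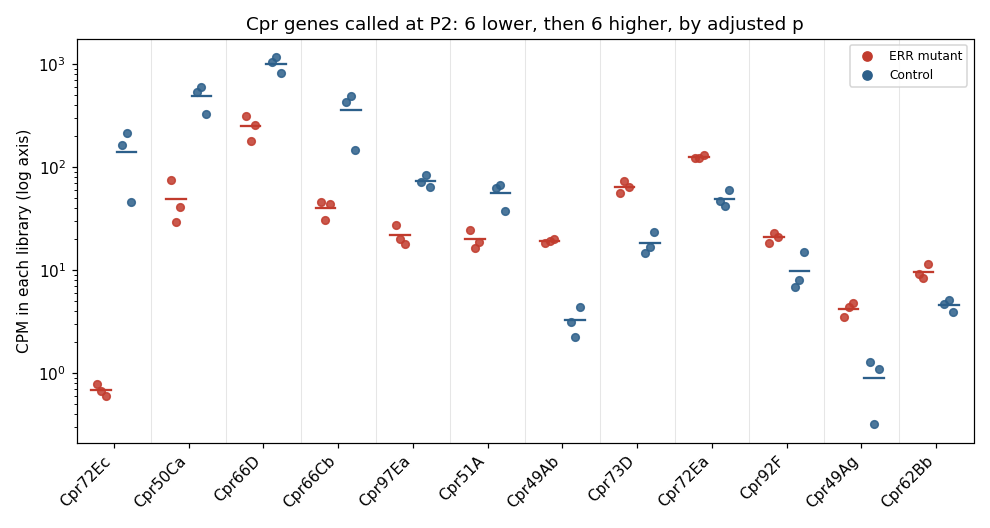
CPM in each P2 library (log axis) of the 6 Cpr genes called lower and the 6 called higher with the smallest adjusted p, with ERR mutant libraries (red) left of control libraries (blue) and a bar at each mean. In all 12 genes, chosen by adjusted p in these same libraries, the genotypes do not overlap. Cpr72Ec is at 0.603 to 0.785 CPM in the mutant and at 46.0 to 215 CPM in the control.

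The place of the P2 libraries on the time course is given beside these calls. Each library was placed on the control course by 2000 genes that change between control stages, with cuticle, chitin, tanning and ecdysone genes left out, on a scale where 1 is WPP, 2 is P1 and 3 is P2. Mutant P2 libraries lay at 2.87, 2.763 and 2.826 and control P2 libraries at 2.976, 3.016 and 2.996. The difference of -0.176 had the smallest p that 3 against 3 libraries can give (two-sided exact permutation test, p = 0.1; 0.35 adjusted over 7 stages). At the other stages it was -0.147 at A6 (exact p = 0.1) and between -0.029 and 0.059 elsewhere. The control libraries alone, those of P2 among them, chose the genes and set the scale, which favours placing controls at their own stage. The genotypes were thus not treated alike, and these p-values are no fair test of a difference in stage. No library could be placed beyond A6, the end of the scale. The part of the P2 shift in the P2 calls was not tested.

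Control levels at P1 and P2, which share the control P2 libraries with the genotype difference, are set beside the mutant. For Cpr76Bc the mutant P2 mean was 1355 CPM, between 9.50 CPM in control P1 and 3636 CPM in control P2 libraries. For Cpr72Ea it was 125 CPM, between 5279 CPM in control P1 and 49.5 CPM in control P2 libraries. In all, the mutant P2 mean lay between the control P1 and P2 means for 12 of the 19 called genes, below both for 4 and above both for 3. The same count was not made over all genes called at P2, so it is a description only. Cpr97Ea was at 21.7 CPM in the mutant at P2, under its 89.1 CPM in control P1 and 73.2 CPM in control P2 libraries. Cpr49Ab was at 19.2 CPM in the mutant, above its 0.0433 CPM in control P1 and 3.28 CPM in control P2 libraries, and Cpr73D was at 64.8 CPM, above 18.8 and 18.2 CPM.

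Other genes of the cuticle differed at P2 as well. Of 30 listed genes of chitin synthesis, modification and turnover, 1 was higher and 16 lower, with a median log2 difference of -0.72. The smallest adjusted p were those of obst-E, an obstructor chitin-binding protein (3.02 ± 0.614 CPM in the mutant, 24.8 ± 4.0 CPM in the control; log2 fold change -3.04, adjusted p = 4.44e-10), and of the chitin deacetylases serp (log2 fold change -2.64, adjusted p = 4.81e-10) and Cda5 (log2 fold change -1.67, adjusted p = 3.79e-09). The chitinase gene Cht5 was the higher one (log2 fold change 1.27, adjusted p = 0.0288). A further list held cuticular proteins with the Rebers and Riddiford consensus but other symbols. Of its 22 tested genes, 2 were higher and 3 lower (median 0.06), led by Crys, Edg84A (log2 fold change 4.28, adjusted p = 0.00059) and Ccp84Ac (log2 fold change -2.24, adjusted p = 0.00386).

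Of 11 tanning genes, 1 was higher and 2 lower (median -0.06). They were y, needed for black pigment (0.490 ± 0.278 CPM in the mutant, 94.8 ± 77.3 CPM in the control; log2 fold change -7.62, adjusted p = 1.15e-08), t (log2 fold change -0.68, adjusted p = 0.0103) and AANAT1, an acetyltransferase acting on dopamine (log2 fold change 0.36, adjusted p = 0.0108). Of 21 genes of ecdysone metabolism and response, 3 were higher and 4 lower (median -0.01). The first were Blimp-1 (log2 fold change 1.29, adjusted p = 9.42e-06), Eip75B (log2 fold change -0.70, adjusted p = 4.68e-05) and Cyp18a1, which inactivates ecdysone (log2 fold change 1.25, adjusted p = 0.000178); EcR, the ecdysone receptor, was higher too. Of 4 eye markers, 3 were lower, with the summed level of the list at 133 to 202 CPM in the mutant and 378 to 419.6 CPM in the control, and none at 0. Of 6 muscle markers 5 were lower, and of 4 neuron markers none was called. Muscle markers summed to 3483 to 4787 CPM in the mutant and 6674 to 7704 CPM in the control. Fat body markers, none of 5 called, summed to 6130.2 to 6726 CPM in the mutant and 7825 to 8934 CPM in the control. The dosage compensation RNAs roX1 and roX2, made in males, were not called either and summed to 316 to 502 CPM in the mutant and 133 to 295 CPM in the control, while 4 female genes summed to 3.55 to 5.02 CPM in the mutant and 5.73 to 9.19 CPM in the control. Sums of 4 male germline genes overlapped, at 536 to 903 CPM in the mutant and 362 to 834 CPM in the control. The part of these markers, and of the sexes, in the levels of the Cpr genes at P2 was not tested.

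At P3 a single Cpr gene was called. Cpr72Ea was higher in the mutant, at 49.6, 27.8 and 36.3 CPM, against 8.19, 12.4 and 9.32 CPM in the control, and no Cpr gene was lower (log2 fold change 1.93, SE 0.254, adjusted p = 1.96e-05). Of all genes, 0.176% were called higher and 0.271% lower at P3. The call of Cpr72Ea held in every alternative tried. Cpr72Ec, at 1842 ± 183 CPM in the mutant and 1583 ± 234 CPM in the control (SD, n = 3), had adjusted p = 1.0.

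No Cpr gene was called at WPP, P1 or P4 with edgeR, where 0.651%, 0.797% and 0.856% of all genes were called. At an unadjusted p under 0.05 there were 5 of the 58 Cpr genes at each of these stages. Of the 13672 tested genes, 871, 1402 and 1337 were under it at WPP, P1 and P4. DESeq2 called none at WPP and P1 and 2 at P4, Cpr72Ea and Cpr49Ah, both higher in the mutant (adjusted p = 0.0419 and 0.043). Of all genes, 23 were higher and 86 lower at P1, and 74 and 81 with the size factors of DESeq2 in edgeR. Without mutant P1 replicate 1 the count at P1 was likewise 0, and at P4 it was 2 without mutant P4 replicate 3 and 1 without mutant P4 replicate 2.

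At A1, 4 genes were called and all were lower in the mutant, while 0.929% of all genes were called higher and 1.97% lower. That is 127 and 270 genes, and 186 and 233 with the size factors of DESeq2 in edgeR, under which the 4 Cpr genes were also lower. Cpr47Ea had 22.7, 20.1 and 22.3 CPM in mutant A1 libraries and 32.5, 42.2 and 55.8 CPM in control A1 libraries (log2 fold change -1.0, SE 0.209, adjusted p = 0.005). Cpr11B had 1.0, 1.60 and 0.465 CPM in the mutant, against 2.86, 5.10 and 5.17 CPM in the control (log2 fold change -2.10, SE 0.498, adjusted p = 0.0132). In both genes no mutant library reached the lowest control library, but Cpr11B rests on 3 to 9 counts in each mutant library.

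Cpr100A had 508, 322 and 302 CPM in the mutant and 765, 685 and 470.2 CPM in the control (log2 fold change -0.76, SE 0.188, adjusted p = 0.0194). Cpr50Cb had 20.01, 9.08 and 8.05 CPM in the mutant and 31.4, 31.8 and 16.1 CPM in the control (log2 fold change -1.10, SE 0.294, adjusted p = 0.0355). The libraries of the genotypes overlapped in both genes, and in both mutant replicate 1 was the highest mutant library and control replicate 3 the lowest control library. When the 6 A1 libraries were fitted alone, the calls of Cpr100A and Cpr50Cb were lost (adjusted p = 0.264 and 0.289). The A1 calls also depended on single libraries, with 1 to 7 genes called when each was left out. The count fell to 2 without control replicate 1 or mutant replicate 2 and to 1 without control replicate 2 or mutant replicate 3, and it was 7 without control replicate 3 or mutant replicate 1.

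At A6, when the family was low, 9 genes were called, 4 higher and 5 lower in the mutant, and 6.14% of all genes were called higher and 5.28% lower. Scaled by the size factors of DESeq2, edgeR called 4 Cpr genes higher and 7 lower, and of all genes 653 higher and 913 lower, in place of 840 and 722. Cpr47Ef had the smallest adjusted p, at 8.06, 8.15 and 10.96 CPM in the mutant and 27.5, 23.2 and 19.3 CPM in the control (log2 fold change -1.37, SE 0.213, adjusted p = 4.35e-05). Cpr49Ab, higher in the mutant at P2, was lower at A6, with 27.9, 22.05 and 20.8 CPM in the mutant, against 42.3, 42.2 and 38.7 CPM in the control (log2 fold change -0.80, SE 0.216, adjusted p = 0.0128). Cpr49Ae, from the same run, had 23.2, 22.9 and 26.4 CPM in the mutant and 38.4, 37.8 and 36.6 CPM in the control (log2 fold change -0.64, SE 0.188, adjusted p = 0.023).

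Also lower was Cpr67Fb, with 2.10, 3.51 and 4.99 CPM in the mutant and 6.26, 8.22 and 8.40 CPM in the control (log2 fold change -1.10, SE 0.347, adjusted p = 0.0367). Cpr11B was lower at A6 as at A1, with 0.161, 0.702 and 0.322 CPM in the mutant and 1.68, 1.28 and 1.87 CPM in the control (log2 fold change -1.94, SE 0.631, adjusted p = 0.0419). Its mutant values rest on 1 to 5 counts a library.

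The lens genes, lower in the mutant at P2, were on the other side at A6. Cpr66D had 10.5, 15.9 and 7.25 CPM in mutant A6 libraries and 4.27, 3.29 and 4.51 CPM in control A6 libraries (log2 fold change 1.47, SE 0.294, adjusted p = 0.000689). Cpr72Ec had 62.6, 91.4 and 65.2 CPM in the mutant, against 37.1, 30.9 and 40.3 CPM in the control (log2 fold change 1.02, SE 0.306, adjusted p = 0.0277). In both every mutant library was above every control library, and Cpr72Ec was the most abundant Cpr gene of the mutant by CPM at this stage, with 22.5% of the family's CPM. Crys was at 6.51 ± 1.88 CPM in the mutant and 10.2 ± 1.46 CPM in the control (SD, n = 3; adjusted p = 0.245). Of the 4 eye markers 2 were higher in the mutant at A6, with a summed level of 5680 to 7402 CPM in the mutant and 3963 to 4333 CPM in the control and none at 0; their part in these levels was not tested. Muscle markers (5 of 6 called) were also higher at A6, as was 1 of 4 neuron markers, and gut (3 of 5), accessory gland (3 of 3) and fat body markers (2 of 5) were lower. Fat body markers summed to 3.06 to 3.37 CPM in the mutant and 19.3 to 43.3 CPM in the control.

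Cpr57A had 6.93, 6.18 and 5.32 CPM in the mutant and 2.75, 3.47 and 2.49 CPM in the control (log2 fold change 1.09, SE 0.248, adjusted p = 0.00288), and it shares its strand with the overlapping odorant-binding protein gene Obp57d. Cpr97Eb had 7.25, 6.60 and 6.93 CPM in the mutant, against 3.20, 3.29 and 4.82 CPM in the control (log2 fold change 0.87, SE 0.257, adjusted p = 0.0237). For all 9 genes the genotypes did not overlap at A6. The same libraries set these calls, and overlap was not counted over all genes, so this is a description only. Leaving out 1 A6 library in turn left 4 to 7 genes called, with 4 without control replicate 2 or mutant replicate 2 and 5 without control replicate 1 or mutant replicate 1, and Cpr47Ef, Cpr66D and Cpr57A were called every time.

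**Figure D4:**
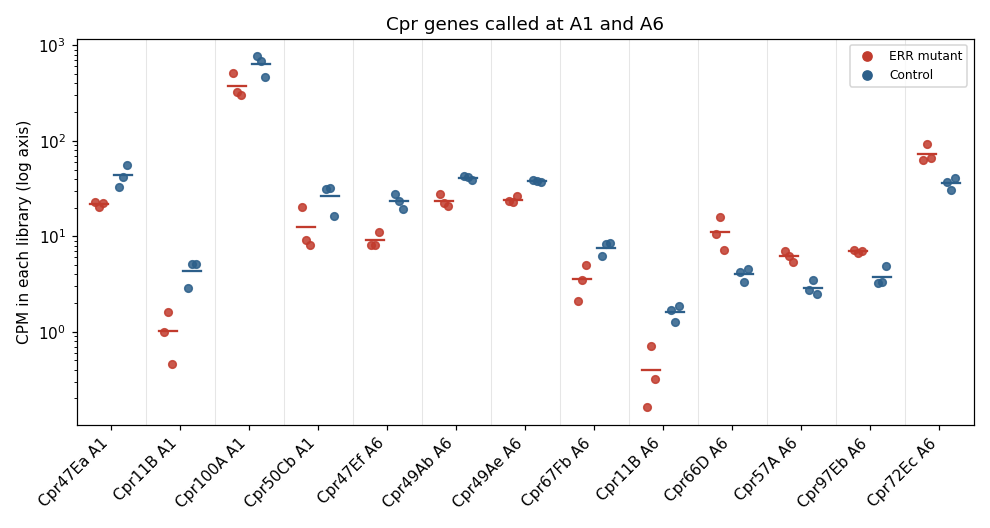
CPM in each library (log axis) of the 4 Cpr genes called at A1 and the 9 called at A6 (5 lower, then 4 higher), with ERR mutant libraries (red) left of control libraries (blue) and a bar at each mean. At A1 the libraries of Cpr100A and Cpr50Cb overlap, and Cpr72Ec at A6 lies at 62.6 to 91.4 CPM in the mutant and 30.9 to 40.3 CPM in the control.

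Over the 7 stages 27 of the 58 genes were called at least once, 21 at 1 stage and 6 at 2 stages. The same count was not made over all genes, so it is a description only. Cpr66D and Cpr72Ec were lower at P2 and higher at A6, Cpr49Ab and Cpr49Ae were higher at P2 and lower at A6, Cpr72Ea was higher at P2 and P3, and Cpr11B was lower at A1 and A6. The A6 calls of Cpr72Ec, Cpr49Ae, Cpr49Ab and Cpr11B were each lost without some A6 library (edgeR adjusted p up to 0.165, 0.0964, 0.0674 and 0.174). That of Cpr11B at A1 was lost without some A1 library (up to 0.123). A genotype difference that depends on stage was tested directly, over all stages at once. It was called for 21 Cpr genes, against 12.4% of all genes.

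The P2 difference was also set against the P3 difference in 1 contrast. It was called lower at P2 than at P3 for 10 Cpr genes and higher for 4, against 5.16% and 1.13% of all genes. Cpr72Ec led this contrast (log2 difference of differences -7.86 ± 0.58, SE, adjusted p = 9.96e-10). Cpr66D, Cpr66Cb, Cpr50Ca, Cpr64Aa, Cpr97Ea, Cpr51A, Cpr76Bc, Cpr30F and Cpr47Ec were the others on the lower side. The 4 on the higher side were Cpr49Ab (log2 difference of differences 2.14 ± 0.339, SE, adjusted p = 8.7e-05), Cpr73D, Cpr49Ag and Cpr92F. Of these 14 calls, 8 held when each library was left out in turn. Cpr30F, Cpr47Ec, Cpr76Bc, Cpr92F, Cpr49Ag and Cpr73D were each lost without some library, and Cpr47Ec was also lost with DESeq2 (adjusted p = 0.0507). With single libraries left out, 7 to 10 genes were called lower and 2 to 5 higher, with 2 higher without control P2 replicate 2, and DESeq2 called 9 lower and 6 higher. Cpr72Ea, called at both stages, was not called here (log2 difference of differences -0.59 ± 0.334, SE, adjusted p = 0.385).

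**Figure D5:**
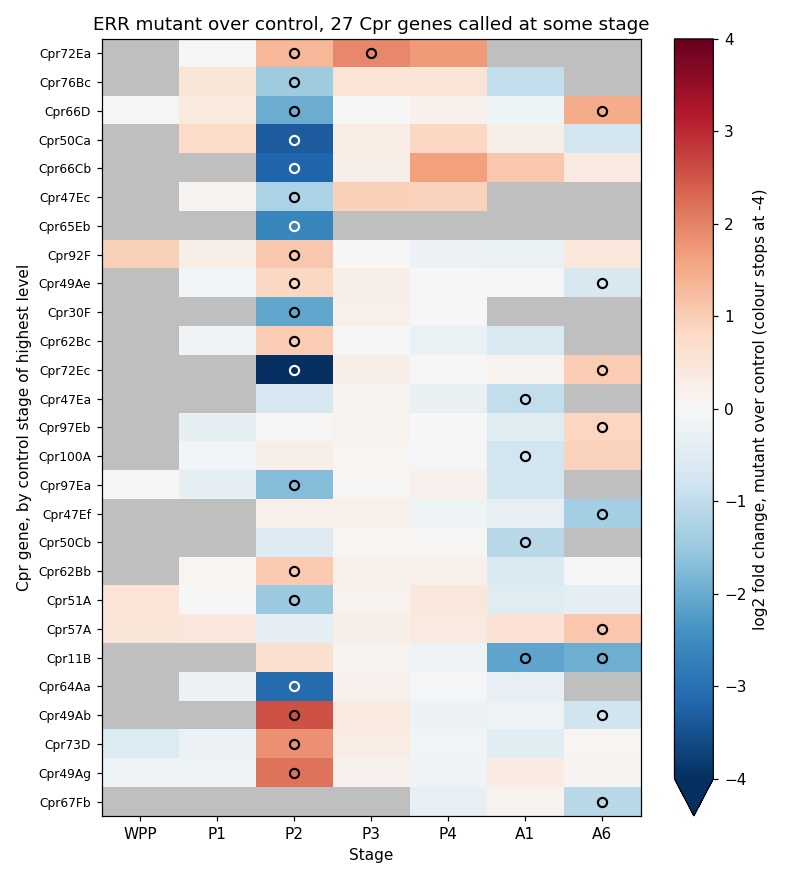
Log2 fold change of the ERR mutant over the control at each stage (columns) for the 27 Cpr genes called at some stage (rows, by control stage of highest level), with circles at calls and grey where both means were under 1 CPM; colour stops at -4. Most circles stand in the P2 column, in blue and in red, and those at A6 are on the other side for Cpr66D, Cpr72Ec, Cpr49Ab and Cpr49Ae. The A6 calls of Cpr72Ec, Cpr49Ab and Cpr49Ae were each lost without some A6 library.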

How the data were processed

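RNA of whole flies was measured in 42 libraries of 14 groups, each with 3 libraries numbered in accession order. Poly(A) RNA was made into stranded TruSeq libraries, per the labels' protocols. The submitters' processing notes name cutadapt 1.16, STAR 2.7.0f, RSEM 1.3.1, DESeq2 1.22.2 and dm6, without roles; annotation, strand setting and filters are not given in the sources used here. Estimated counts per gene, already whole numbers, were deposited and entered the tests unchanged. From the deposited normalized signal came the scaling factors, 1 for every gene in every library, of 1 alternative. The deposited FPKM, which is that signal times 1 factor for each gene, gave levels per length. The deposited log-scale values were not used.

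All libraries entered 1 edgeR 4.0.16 fit in R 4.3.3 (TMM scaling, filterByExpr, robust quasi-likelihood, 28 residual degrees of freedom), with Benjamini-Hochberg adjustment over the 13672 genes tested in each comparison. Log2 fold changes are given with their SE. A group at 0 counts was set at 3 counts for a bound. The fit was tested on simulated data. No pair of replicates agreed within sampling noise (chi-square per gene 2.86 to 71.8 over 42 pairs). Names and positions came from the Ensembl BDGP6.54 annotation in dm6 coordinates, in which 99.4% of the IDs and all 63 Cpr genes were found. No sequence table was used.

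The members, lists and tests were chosen with earlier results of these data known. Genes named are all those called between genotypes. Values in every library are given for up to 6 genes in each direction at a stage, by adjusted p, and for the 3 highest by FPKM at each control top stage. For control steps, up to 3 genes in each direction by fold were named, with a mean of at least 5 CPM in the higher group. Alternatives were other scalings, DESeq2 1.42.0, no filter, the libraries of 1 stage alone, leaving out single libraries, and other gene numbers for the placing of libraries in time.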

Additional observations from a re-analysis of the deposited data

Results flagged for a closer look

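The difference between ERR mutant and control depended on the stage for 21 of the 58 tested Cpr genes, by edgeR's quasi-likelihood test of genotype by stage with p-values adjusted over all genes. The smallest adjusted p was that of Cpr72Ec, at 1.3e-09, followed by Cpr66D at 1.6e-06, Cpr49Ab at 2.1e-06, Cpr50Ca at 2.8e-05 and Cpr66Cb at 7.2e-05. These are the 5 genes with the smallest adjusted p at P2, and Cpr72Ec, Cpr66D and Cpr49Ab were also called the other way at A6. The A6 calls of Cpr72Ec and Cpr49Ab were each lost without some A6 library.

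Adjusted p of 0.0011 was found for Cpr73D and for Cpr51A, 0.0015 for Cpr72Ea, 0.0023 for Cpr97Ea, 0.0061 for Cpr76Bc and 0.0072 for Cpr64Aa, all called at P2. Cpr47Ef (0.0029) and Cpr47Ea (0.0045) were called at adult stages alone, as were Cpr11B (0.015), Cpr97Eb (0.016) and Cpr100A (0.034). The test gave 0.011 for Cpr92F, 0.012 for Cpr49Ae, 0.018 for Cpr62Bb, 0.023 for Cpr62Bc and 0.033 for Cpr49Ag, the 5 further genes higher in the mutant at P2. Leaving out each library in turn kept 17 of the 21, and Cpr49Ag, Cpr62Bb, Cpr62Bc and Cpr100A were each lost without some library (adjusted p up to 0.124 for Cpr49Ag and 0.108 for Cpr100A). That of Cpr100A was also lost with the size factors of DESeq2 in edgeR and with the deposited factors (adjusted p = 0.0555 and 0.0544). All 21 are genes called at some stage in the same libraries, so they add no independent evidence.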

How the results depend on the processing

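At P2, where 19 genes were called, 16 to 20 were called in the alternatives, 9 to 12 of them lower and 7 to 8 higher except for 6 in the P2 libraries alone, and none changed direction. Leaving out each P2 library kept 16 of the 19, with Cpr47Ec, Cpr62Bc and Cpr30F lost at times. The counts of 0 at WPP and P1 and of 1 at P3 were the same in every alternative, while those at P4, A1 and A6 moved. DESeq2 called 2 genes at P4, where edgeR called 0, and 7 at A1, where edgeR called 4. Leaving out single libraries gave 0 to 2 genes at P4, 1 to 7 at A1 and 4 to 10 at A6 (9 with all), the last without mutant P1 replicate 1. Genes with their highest control level at A1 numbered 2 in deposited FPKM and 2 by medians, and 1 to 2 with libraries left out, against 1 by mean CPM, because Cpr100A moved there. The P2 placing of -0.176 was -0.122 with 500 and -0.196 with 5000 genes. The median log2 difference of all genes moved by less than 0.1 under every scaling. No paired analysis was possible because the labels give no replicate numbers. Genes under about 1 CPM rest on a few counts in a library, so that a difference there may not be detectable at this depth.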
